A study of Mus musculus with 14 samples.

Results

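The contractile genes of the myoepithelium were examined in mouse mammary epithelial cells (MECs) that overexpress Usp22, a deubiquitinating enzyme of the SAGA complex. The group was set by name as Acta2, Myh11, Mylk, Myl9, Tagln, Cnn1, Oxtr, Tpm2, Lmod1 and Myocd, and all 10 were among the 16124 genes of the expression table. Myoepithelial cells form the outer layer of the mammary ducts and alveoli and belong to the basal epithelium, yet they carry the contractile machinery of smooth muscle. In lactation, oxytocin from the pituitary binds its receptor on these cells, calcium rises, myosin light chain kinase phosphorylates the regulatory light chain, and myosin pulls on actin filaments so that milk is ejected. Serum response factor (SRF) with its cofactor myocardin switches on these genes in smooth muscle by binding a short element, the CArG box.

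RNA-seq libraries came from MECs of 7 wild-type (WT) and 7 Usp22 OE/OE females, 1 library per mouse, all nulliparous and 3.5 months old. Each OE/OE mouse had a WT littermate, and the litters carry the pair numbers 1, 3, 4, 5, 6, 7 and 8. OE/OE mice were homozygous for a FLAG-MYC-tagged Usp22 cDNA knocked into ROSA26, driven by the CAGGS promoter, whose STOP cassette had been removed by Zp3-Cre in the female germ line. Overexpression was therefore ubiquitous, so that cells other than MECs carried it too, and an MEC-autonomous change cannot be told apart from one that began in another tissue. MECs were pellets of digested glands after pulse spins, not sorted cells. The depth was 20125106 to 41835978 fragments counted on genes per library, with medians of 37546978 in WT and 38130881 in OE/OE. Normalized counts of Usp22 ran from 3500 to 5380 in WT and from 74948 to 144288 in OE/OE, so each library matched its genotype.

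The stretches that hold CArG-box letters are shown first, since Myocd and the genes it is known to act on are both measured here. RefSeq promoters (GRCm38.p6) were matched for 7 of the 10 genes and not for Tagln, Myh11 and Myocd, which were not searched. The 250 bases before the start were searched on both strands, and those of Mylk lie inside its GENCODE gene (chr16:34784700-34784949). CArG-box letters, with at most 1 C or G in the A/T core, were in 2 of the 7, Acta2 and Myl9, and in 8.59% of all 32851 RefSeq promoter windows. Letters with an unbroken core were in Myl9 alone among the 7, and in 1.47% of all windows. The MCAT element CATTCC, known as a binding site of TEAD factors, was in 3 of the 7 (Acta2, Lmod1 and Mylk) and in 12.6% of all windows. No match says only that these letters are not in this window. Capitals mark the CArG-box letters, and each stretch runs 5′ to 3′ on the strand of its gene. Those of Acta2 (chr19:34255438-34255467 and chr19:34255388-34255417, minus strand) begin 94 and 44 bases before the RefSeq start and lie in the first, untranslated exon of a longer GENCODE transcript. That of Myl9 (chr2:156775214-156775419, plus strand) begins 250 bases before the RefSeq start and stops before the first GENCODE exon.
Acta2, first: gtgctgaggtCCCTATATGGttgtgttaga
Acta2, second: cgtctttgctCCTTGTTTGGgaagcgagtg
Myl9: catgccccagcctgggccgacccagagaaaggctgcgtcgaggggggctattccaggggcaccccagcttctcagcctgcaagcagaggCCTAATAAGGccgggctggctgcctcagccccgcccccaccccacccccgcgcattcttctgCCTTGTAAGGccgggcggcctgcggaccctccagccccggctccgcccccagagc

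None of the 10 contractile genes passed the test in Usp22 OE/OE MECs. The test was limma on log2(normalized count + 1) with the litter as a block, at the unadjusted p of 0.05 or less that the study used. It called 0 of the 10 genes, beside 3.81% of all 16124 genes. The edgeR quasi-likelihood test and DESeq2 on the recovered fragments each called 0 as well, and the smallest Benjamini-Hochberg adjusted p of a contractile gene in limma was 1.00. The fitted log2 changes ran from -0.25 (Cnn1) to 0.04 (Oxtr), 9 below 0 and 1 above. Their median was -0.11, beside -0.0015 over all genes, and the median log2 ratio of the 10 genes varied between litters with an SD of 0.35 (n = 7 pairs). The median over all 10 genes was 0.05 without pair 4 and -0.15 without pair 6. The values of the 7 WT and the 7 OE/OE mice overlapped for each of the 10 genes, and over the whole table they did not overlap for 0.0434% of genes. No contractile gene moved in the same direction in all 7 pairs. In bulk RNA, fewer myoepithelial cells and less RNA per cell cannot be told apart.

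The levels spanned a wide range (the plot of levels per kb). Compared per length, as the mean normalized count per kb of exon over the 14 libraries, Acta2 was highest at 21099 ± 4251 (SD, n = 14) and ranked 49 among all genes of the table. Tagln followed at 11234 ± 3274 and Myl9 at 7798 ± 2157. Myh11 (4492 ± 1284) and Tpm2 (3632 ± 919) did not differ beyond their spread, Myh11 being the higher in 9 of 14 libraries. Cnn1 was at 2372 ± 729 and Mylk at 1079 ± 239 per kb. Oxtr (380 ± 92.9) and Lmod1 (312 ± 87.9) did not differ beyond their spread either, Oxtr being the higher in 11 of 14 libraries. Myocd, the only transcription cofactor of the group, was lowest at 36.6 ± 22.1 per kb and ranked 11719. The order thus ran from the filament and light chain genes down to the receptor, the nucleator and the cofactor. For the other neighbours the higher gene led in 14 of 14 libraries, except that Myl9 led Myh11 in 13.

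**Figure D1:**
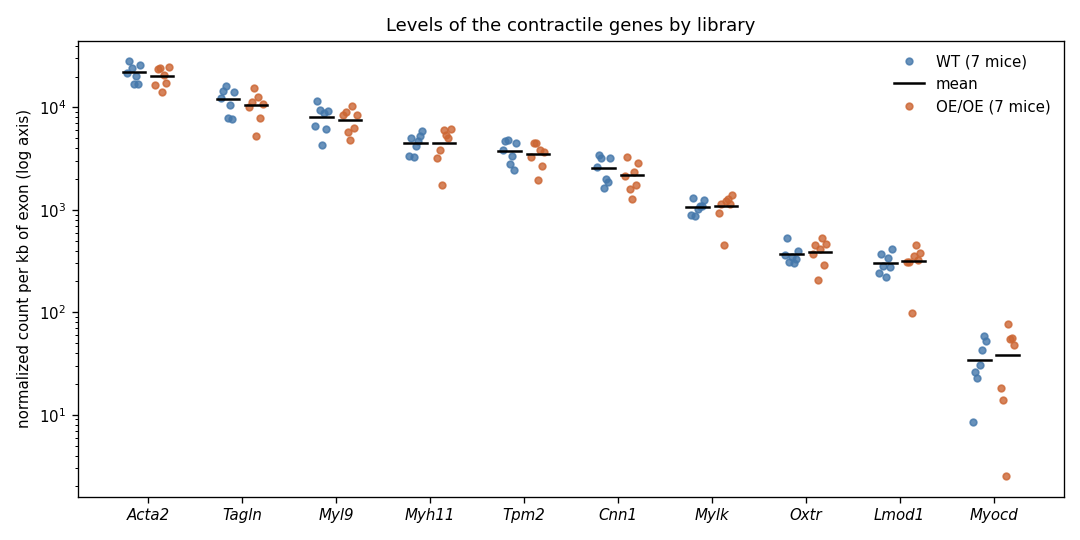
Level of each contractile gene as normalized count per kb of exon (log axis), with a point for each WT and each OE/OE library. The genes spread from Acta2, at a mean of 21099 per kb, to Myocd, at 36.6 per kb, and within each gene the WT and OE/OE points overlap.

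Oxtr (chromosome 6, 112473683 to 112489943, minus strand, GRCm38), the receptor through which oxytocin starts contraction, was the one gene with a positive estimate. Its lowest, median and highest normalized counts were 1455, 1672 and 2556 in WT, against 989, 1988 and 2535 in OE/OE. The ranges overlapped almost fully, and the lowest of all 14 values came from the OE/OE mouse of pair 4. The log2 change was 0.04 (SE 0.14, 95% interval -0.28 to 0.37, limma p = 0.781), with 4 pairs higher and 3 lower and an exact two-sided sign-flip p of 0.75. Oxtr lies 0.577 Mb from Gt(ROSA)26Sor, the locus of the transgene. Pair 6 was the farthest up, at 0.80 on the log2 scale, and without it the estimate was -0.09.

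The steps from this receptor to calcium were taken from a list of 19 genes, all in the table. Of these 1 passed the test, Plcb1, higher in OE/OE, where 3.81% of all genes were called. Plcb1 encodes a phospholipase C-β that is activated by Gq and releases inositol trisphosphate. Its mean normalized count was 870 ± 203 (WT) against 1138 ± 378 (OE/OE, SD, n = 7 per genotype). The log2 change was 0.35 (95% interval 0.14 to 0.56, limma p = 0.0043, adjusted p = 1.00, exact two-sided sign-flip p = 0.0156, the smallest that 7 pairs allow). Plcb1 was higher in 7 of 7 pairs, and 243 of the 16124 genes moved in 1 direction in all 7. Gnaq, the α-subunit of Gq, had a log2 change of 0.01 and the mechanosensitive channel gene Piezo1 one of 0.07, and neither passed the test. The median log2 change of the 19 genes was -0.0037. The number called was 5 without pair 4 and 6 with the adipocyte level as a covariate, fits that called 8.47% and 17.3% of all genes.

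Mylk (chromosome 16, 34745210 to 35002420, plus strand) encodes the calcium- and calmodulin-dependent kinase that phosphorylates the regulatory light chain. Its lowest, median and highest normalized counts were 9904, 12314 and 14602 in WT and 5066, 12963 and 15822 in OE/OE. The OE/OE mouse of pair 4 stood far below the others, the next lowest OE/OE library being at 10493. Mylk had a log2 change of -0.06 (SE 0.14, 95% interval -0.37 to 0.26, limma p = 0.702, exact sign-flip p = 0.922), although 5 of 7 pairs were higher in OE/OE, and it was 0.10 without pair 4. Of the 16 genes listed for the switch that sets light chain phosphorylation (among them the subunits of myosin phosphatase), 15 were in the table and 0 passed the limma test, with a median log2 change of 0.04. The most abundant per kb was Calm2, which encodes calmodulin, with a log2 change of 0.04.

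Myl9 (chromosome 2, 156775420 to 156781658, plus strand), the regulatory light chain itself and one of the genes with CArG-box letters above, had 5007, 10253 and 13429 normalized counts as the lowest, median and highest WT values and 5606, 9740 and 11926 as those of OE/OE. The lowest mice of both genotypes were the littermates of pair 5. For Myl9 the log2 change was -0.06 (SE 0.13, 95% interval -0.34 to 0.22, limma p = 0.637, exact sign-flip p = 0.734), and it was 0.05 without pair 4. Reads of Myl9 may be shared with its near-identical paralogs Myl12a and Myl12b, so that its level is uncertain to that extent.

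Myh11 (chromosome 16, 14194535 to 14291372, minus strand) is the heavy chain of smooth muscle myosin and a widely used marker of the mature contractile state. It had 24731, 35372 and 44828 normalized counts among WT mice, and 13272, 37987 and 46974 among OE/OE mice (lowest, median and highest). The OE/OE median was above the WT median, and the OE/OE mouse of pair 4 was below all others. Its log2 change was -0.09 (SE 0.16, 95% interval -0.44 to 0.26, limma p = 0.578, exact sign-flip p = 0.688), with 4 pairs lower and 3 higher. It was 0.04 without pair 4 and -0.19 without pair 5.

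Acta2 (chromosome 19, 34241090 to 34255590, minus strand), smooth muscle α-actin and the thin filament on which myosin pulls, had 36804, 47977 and 61806 normalized counts among WT mice, and 30939, 45327 and 54502 among OE/OE mice. It alone took 0.0842% to 0.184% of all counted fragments of a library. The groups overlapped over most of their range. The log2 change was -0.13 (SE 0.10, 95% interval -0.36 to 0.09, limma p = 0.214), with 5 pairs lower and 2 higher and an exact sign-flip p of 0.125. The interval bounds a fall of Acta2 at 0.781-fold and a rise at 1.07-fold.

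Tpm2 (chromosome 4, 43514711 to 43523765, minus strand), β-tropomyosin, which lies along the actin filament, had 7091, 11074 and 13942 normalized counts among WT mice, and 5657, 10602 and 13173 among OE/OE mice. Its log2 change was -0.12 (SE 0.10, 95% interval -0.34 to 0.09, limma p = 0.235, exact sign-flip p = 0.25), and it was -0.05 without pair 5 or with the exon length index of the library as a covariate. That index, defined with the correlations, sets the long genes of a library against its short ones. The pattern followed Acta2 closely from library to library, with a Pearson r of 0.92 (n = 14 libraries that share litters, a description). Both genes have close paralogs, Acta1 and Actg2 for Acta2 and Tpm1 for Tpm2, with which the counting could split reads. Actg2, the enteric smooth muscle actin, had its highest value of the 14 libraries, 5200 normalized counts, in the OE/OE mouse of pair 4, against 1843 in the WT littermate, and was picked here after its values were seen.

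The actin-associated regulators Cnn1 and Tagln had, with Myocd, the 3 estimates farthest below 0, and neither passed the test. Cnn1 (chromosome 9, 22099216 to 22109630, plus strand), calponin, inhibits the actin-activated ATPase of myosin. It had 4473, 7238 and 9459 normalized counts among WT mice, and 3487, 5879 and 8889 among OE/OE mice, with wide overlap. The log2 change was -0.25 (SE 0.13, 95% interval -0.54 to 0.03, limma p = 0.0769), or 0.839-fold, with 6 pairs lower and 1 higher and an exact sign-flip p of 0.0938. The estimate of Cnn1 passed under quantile normalization (-0.28, with a limma p of 0.0400) and without pair 6 (-0.33, with a limma p of 0.0296). It was -0.13 without pair 4, with a limma p of 0.164, and -0.08 with the adipocyte marker level as a covariate, with a limma p of 0.654.

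Tagln (chromosome 9, 45929619 to 45936058, minus strand), transgelin or SM22α, an actin-bundling protein, had 15159, 24813 and 32380 normalized counts among WT mice, and 10421, 21493 and 30754 among OE/OE mice. The lowest OE/OE mouse (pair 5) was below the WT range, and the highest (pair 4) was within it. Tagln had a log2 change of -0.20 (SE 0.11, 95% interval -0.45 to 0.04, limma p = 0.0959, exact sign-flip p = 0.0938), with 5 pairs lower. It passed without pair 6 (-0.28, with a limma p of 0.0352). It was -0.14 without pair 5, with a limma p of 0.236, and -0.13 with the exon length index as a covariate, with a limma p of 0.222. Tagln overlaps Pcsk7 and Gm48529 on the opposite strand, and Mylk overlaps Gm21691. The strand setting of the counting is not given in the sources used here, so reads in the shared stretches cannot be told apart.

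Lmod1 (chromosome 1, 135324807 to 135368065, plus strand), leiomodin, nucleates actin filaments in smooth muscle. It had 876, 1113 and 1628 normalized counts among WT mice, and 390, 1293 and 1783 among OE/OE mice. The OE/OE mouse of pair 4 was again the lowest, and the next lowest OE/OE mouse had 1217. The estimate was -0.03 on the log2 scale (SE 0.23, 95% interval -0.53 to 0.48, limma p = 0.911, exact sign-flip p = 0.953), and it was 0.22 without pair 4.

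Myocd (chromosome 11, 65176561 to 65269989, minus strand), the SRF cofactor, was the scarcest and the most variable gene of the group. Its lowest, median and highest normalized counts were 54.5, 195 and 379 in WT and 16.3, 308 and 489 in OE/OE, a 30.0-fold range over the 14 libraries. The lowest value, in the OE/OE mouse of pair 4, rested on 17 fragments. The OE/OE values reached beyond the WT values at both ends, with a log2 change of -0.20 (SE 0.45, 95% interval -1.22 to 0.82, limma p = 0.667, exact sign-flip p = 0.828), so values from 0.429-fold to 1.76-fold were within the interval. Without pair 4 the estimate was 0.28. Of the 14 names listed for SRF, its cofactors and their partners, 12 were in the table, Mkl1 and Mkl2 being older names of Mrtfa and Mrtfb, which were. None of the 12 passed the limma test, and their median log2 change was 0.08. Srf itself had a mean normalized count of 4165 ± 467 (WT) against 5027 ± 1194 (OE/OE, SD, n = 7), a log2 change of 0.24 (95% interval -0.03 to 0.51, limma p = 0.0781, exact sign-flip p = 0.141), higher in 6 of 7 pairs. The most abundant per kb, Wwtr1 (TAZ, a TEAD coactivator), had a log2 change of 0.16 (limma p = 0.109, exact sign-flip p = 0.141).

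**Figure D2:**
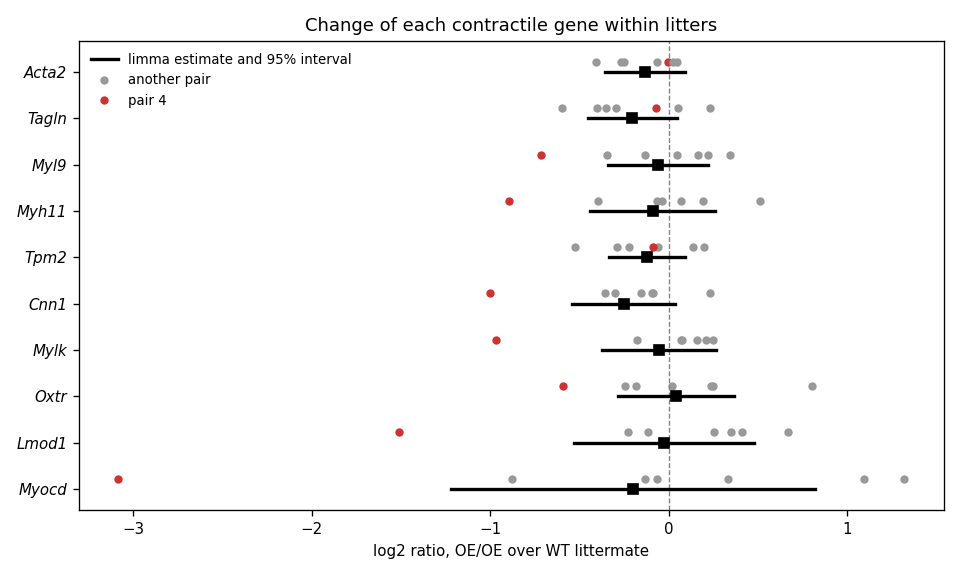
Change of each contractile gene in Usp22 OE/OE MECs on the log2 scale, with the limma estimate and its 95% interval (black) and the ratio of each litter (points, pair 4 in red). Each interval crosses 0, and pair 4 is the lowest point for Myh11, Mylk, Myl9, Cnn1, Oxtr, Lmod1 and Myocd but not for Acta2, Tagln or Tpm2.

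More of the variation lay between litters than between genotypes, the litters having more degrees of freedom. Of the sum of squares of log2 values over the 14 libraries, the litter took between 57.8% (Lmod1) and 88.6% (Tpm2), and the genotype between 0.0626% (Lmod1) and 8.10% (Cnn1). Within a litter the direction was often shared by the genes. All 10 were lower in the OE/OE mouse of pair 3 (median log2 ratio -0.25) and of pair 4 (median -0.81), and all 10 were higher in pair 6 (median 0.23). The other litters were mixed, with medians of -0.01 in pair 1, 0.21 in pair 5, 0.05 in pair 7 and -0.13 in pair 8.

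The genes differed widely in pair 4. There Myocd was at -3.08, Lmod1 at -1.51, Cnn1 at -1.0, Mylk at -0.97 and Myh11 at -0.90 on the log2 scale, Myl9 was at -0.72 and Oxtr at -0.60, while Acta2 was at -0.01, Tagln at -0.07 and Tpm2 at -0.09. The OE/OE mouse of pair 4 also stood apart from the other libraries in its marker lists. Its mean log2 level over 10 proliferation genes was 9.99, the highest of the OE/OE libraries, against 4.89 in its WT littermate. Its levels of mural (8.08), endothelial (10.3), fibroblast (11.05) and adipocyte (5.28) markers were the lowest of the OE/OE libraries, and its level of basal markers (12.3) was the highest. The part of these lists in the low contractile values of pair 4 was not tested.

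**Figure D3:**
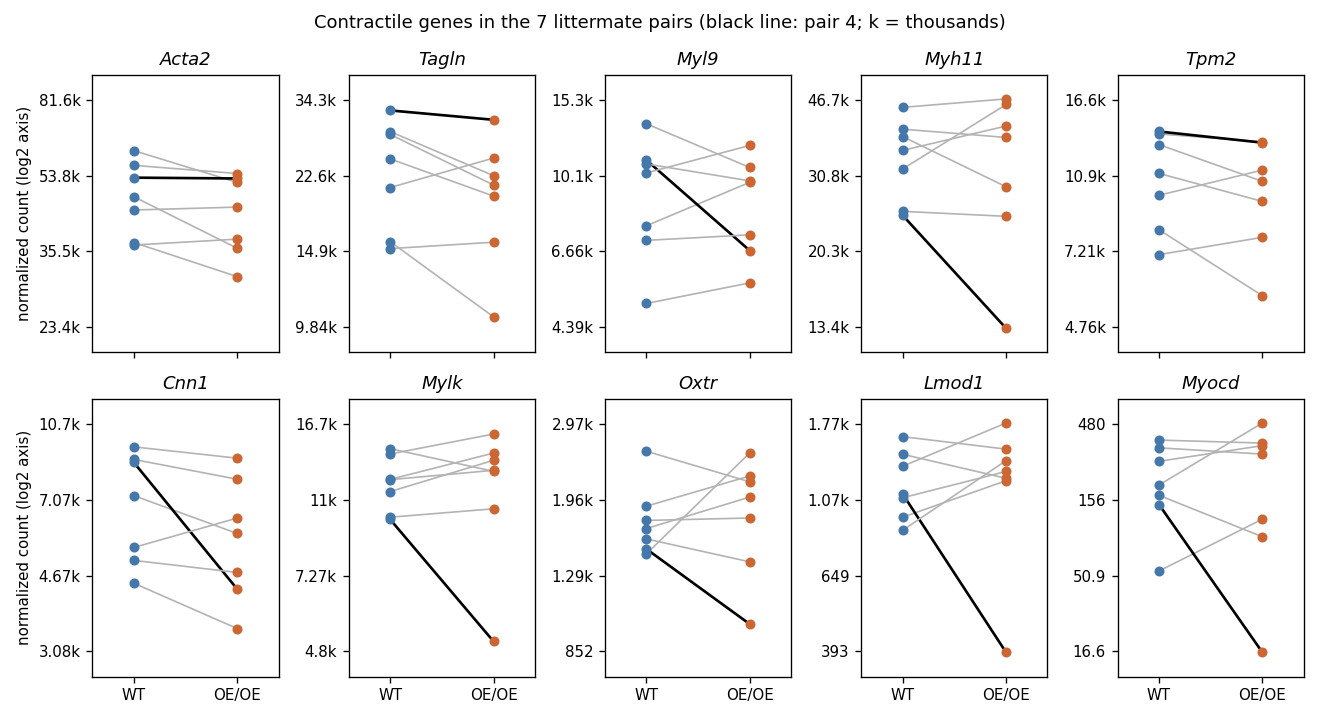
Normalized counts (log axis) of each contractile gene in the WT and the OE/OE littermate of each pair, with a line joining littermates (pair 4 in black). The lines slope both ways in each panel, and the litters differ more in height than the genotypes do.

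Over the 14 libraries the group varied in 2 parts that followed exon length, a division that held only in part within litters. The 5 genes with under 3000 bp of exon (Myl9 1162, Tagln 1988, Acta2 2196, Cnn1 2736 and Tpm2 2909 bp) correlated with each other over the 14 libraries at a Pearson r of 0.67 to 0.97 (median 0.80). The 5 longer genes (Lmod1 3948, Oxtr 4790, Myocd 6424, Myh11 7599 and Mylk 11263 bp) did so at 0.47 to 0.95 (median 0.83). Across the 2 parts r ran from -0.54 to 0.52 with a median of -0.04. Littermates are not independent, so these values are descriptions, and the split at 3000 bp was chosen after the values were seen. Without pair 4 the median was 0.90 among the short, 0.60 among the long and 0.27 across the parts. Among WT mice alone the medians were 0.94, 0.63 and 0.19 (n = 7), and among OE/OE mice 0.66, 0.90 and -0.22 (n = 7). Over the 7 pair ratios the medians were 0.31 among the short, 0.93 among the long and 0.05 across. Without pair 4 they were 0.66, 0.73 and 0.06 (n = 6 pair ratios). Over all 7 pair ratios the short gene Myl9 went with the long genes Myocd (r = 0.95), Lmod1 (0.93) and Mylk (0.87). It did not go with Acta2 (-0.34), Tpm2 (-0.07) or Tagln (-0.01).

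Libraries differed in general in how long and short genes stood to each other. An index was computed for each library, also after the values were seen, as the mean log2 deviation of 5727 genes with at least 5000 bp of exon minus that of 922 genes with under 1500 bp, without the listed genes. It ran from -0.80 to 0.73 in WT and from -0.90 to 1.23 in OE/OE. OE/OE minus WT was 0.10 ± 0.27 (SD, n = 7 pairs, exact two-sided sign-flip p = 0.5), with both pairs 5 and 8 at 0.50 and the others between -0.09 and -0.02. The short genes were lower where the index was higher, with r of -0.89 for Tagln, -0.86 for Tpm2, -0.65 for Acta2, -0.57 for Myl9 and -0.53 for Cnn1 (n = 14 libraries, a description). Without the 2 libraries of most extreme index these were -0.80, -0.76, -0.41, -0.24 and -0.21, and over the 7 pair differences -0.70, -0.76, -0.13, 0.16 and 0.06, so that within litters r was between -0.13 and 0.16 for Acta2, Myl9 and Cnn1. The long genes were higher where it was higher, with r of 0.73 for Myocd, 0.70 for Myh11, 0.54 for Mylk, 0.33 for Lmod1 and 0.18 for Oxtr. The log2 ratio of Myh11 to Acta2, the motor against its track, ran from -2.0 (OE/OE, pair 4) to 0.56 (OE/OE, pair 5), and its r with the index was 0.88 over the 14 libraries. Tagln was lowest in pair 5, where the index was highest, and the log2 ratio of Tagln in that litter was -0.60.

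**Figure D4:**
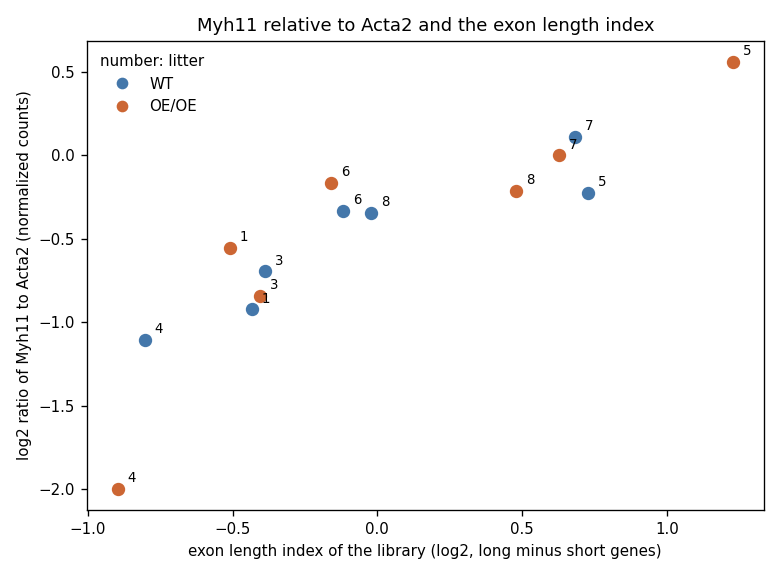
Log2 ratio of the normalized counts of Myh11 and Acta2 in each of the 14 libraries against the exon length index of that library, with points marked by genotype and pair number. The ratio rises with the index, from -2.0 in the OE/OE mouse of pair 4 to 0.56 in that of pair 5, in WT and OE/OE libraries alike.

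After a straight line on the index was removed from each gene, the correlation across the short and long genes ran from 0.20 to 0.96 with a median of 0.54, against -0.04 before. Within the short genes the median was then 0.73 and within the long genes 0.85. Without pair 4 the same step gave a median of 0.52 across the parts, against 0.27 before (n = 12 libraries). With the index as a covariate in limma, 0 of the 10 genes passed the test and their median log2 change was -0.13. What the index reflects was not tested.

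**Figure D5:**
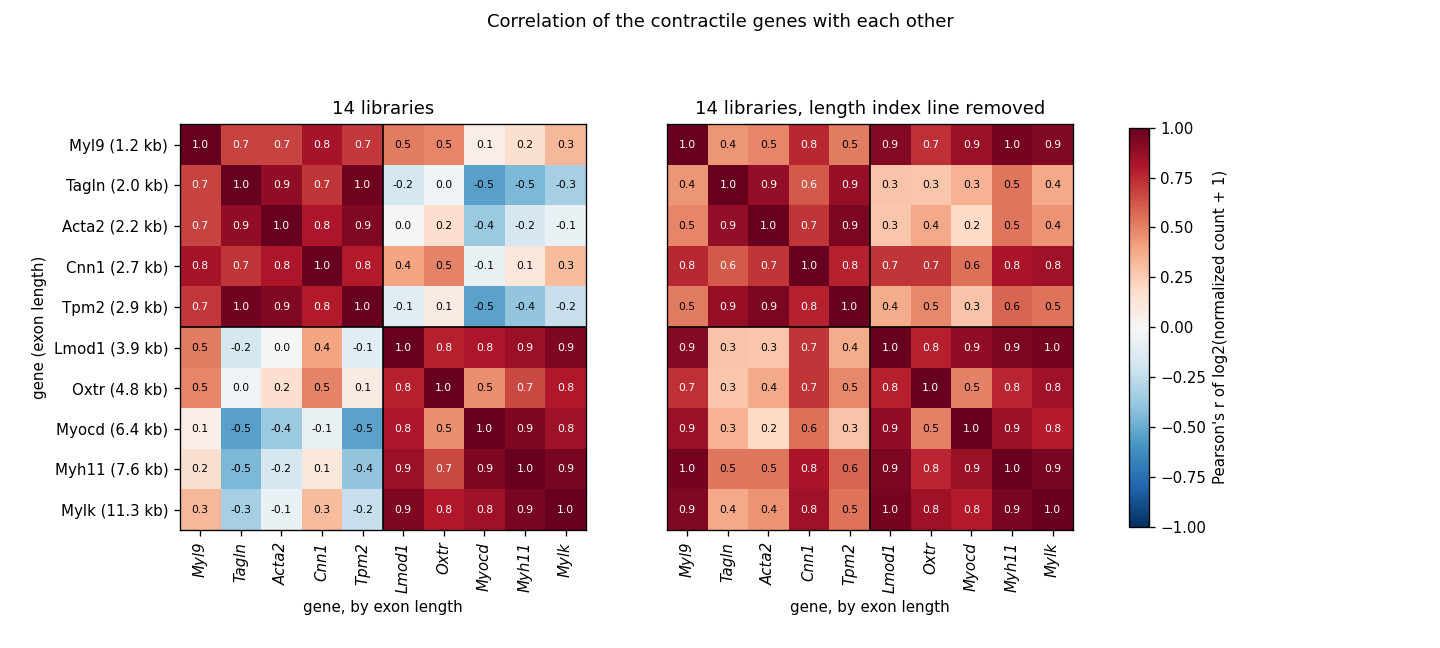
Pearson correlation between each 2 contractile genes over the 14 libraries, ordered by exon length, before (left) and after (right) a line on the exon length index was removed. On the left, 2 blocks of high r stand out, and the values across the blocks run from -0.54 to 0.52, with a median of -0.04. On the right the values across the blocks lie between 0.20 and 0.96.

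The myoepithelial label was checked against markers, because pericytes and vascular smooth muscle (mural cells) use the same contractile genes. Krt14, the basal marker highest per kb, had a mean normalized count of 35508 ± 11691 (WT) against 35878 ± 19126 (OE/OE, SD, n = 7). All 20 genes listed for basal and myoepithelial identity were in the table, down to Lgr5 at 121 per kb. Of these, Jag2, a Notch ligand, passed the test, with a log2 change of 0.22 (95% interval 0.02 to 0.41, limma p = 0.0315, exact sign-flip p = 0.0625). Of the 20 genes 0 were called lower, where 3.81% of all genes were called. Jag2 was not called when pair 4, 5, 6 or 8 was left out, with limma p-values of 0.0510, 0.0804, 0.0823 and 0.0864. Krt17 had a log2 change of -0.24 and did not pass. The 16 mural markers were all in the table too, led per kb by Rgs5, with a mean normalized count of 7791 ± 2116 (WT) against 7417 ± 2782 (OE/OE), and Notch3, with 12524 ± 3858 against 14176 ± 6466 (SD, n = 7). None of the mural markers passed the limma test, and their median log2 change was -0.11. The summed normalized counts of the mural list ran from 22801 to 43790 in WT and from 13580 to 44246 in OE/OE. Those of the basal list ran from 138301 to 202575 in WT and from 122670 to 245475 in OE/OE.

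How closely the contractile genes followed the mural markers differed between genes and rested in part on pair 4. Over the 14 libraries, r with the mean log2 level of the mural list was 0.94 for Lmod1, 0.86 for Mylk, 0.79 for Myocd and 0.77 for Myh11, with 0.55 for Myl9, -0.07 for Acta2 and -0.13 for Tagln. Without pair 4 these were 0.78, 0.49, 0.46, 0.38, 0.69, 0.25 and 0.36 in the same order (n = 12). With the basal list r was 0.43 for Acta2, 0.40 for Tpm2, 0.31 for Tagln and 0.14 for Cnn1. It was -0.71 for Myocd, -0.58 for Lmod1, -0.51 for Myh11, -0.44 for Mylk, -0.21 for Myl9 and -0.07 for Oxtr. Without pair 4 these were 0.38, 0.34, 0.19, 0.36, -0.60, -0.37, -0.27, -0.04, -0.11 and 0.40 in the same order (n = 12). The genes therefore cannot be assigned to myoepithelial cells alone in these libraries, and the part of mural cells in their values was not tested. With the mural level as a covariate, 0 of the 10 passed and the median log2 change was -0.02. Skeletal muscle markers were low: the 16 genes together had 764 to 2388 normalized counts in WT and 654 to 2249 in OE/OE, with 0 called by limma, the most abundant per kb being Acta1, at 71.0 to 551 in the 14 libraries.

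Of 30 other genes of the contractile apparatus and its adhesion to the matrix, 28 were in the table. Smtn (smoothelin), known from contractile smooth muscle, passed the test with a log2 change of 0.20 (95% interval 0.0064 to 0.40, limma p = 0.0442, exact sign-flip p = 0.0625). Its mean normalized count was 6441 ± 1144 (WT) against 7349 ± 781 (OE/OE, SD, n = 7). Of the 28 genes 0 were called lower, where 3.81% of all genes were called. The median log2 change of the 28 genes was -0.0065. The most abundant per kb were Csrp1, a LIM protein, with a log2 change of 0.18, and Tagln2, the transgelin of non-muscle cells, with 0.02, and neither passed. Smtn was not called when pair 3, 4, 6, 7 or 8 was left out, with limma p-values from 0.0640 to 0.129.

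The remaining marker lists described the makeup of the libraries. Of 10 adipocyte markers 6 were called lower and 0 higher in OE/OE (9 estimates below 0, median log2 change -1.24). Of 12 fibroblast markers 3 were called lower and 0 higher (12 below 0, median -0.42), where 3.81% of all genes were called. The 6 called adipocyte genes were scarce. Cfd, the highest of them, had a mean normalized count of 205 ± 109 (WT) against 94.7 ± 73.9 (OE/OE, SD, n = 7). Adipoq had 49.6 ± 35.6 against 20.7 ± 13.8. The adipocyte markers most abundant per kb, Fabp4 and Lipe, did not pass. Fabp4 had 17495 ± 7905 against 15019 ± 9107 and was lower in 4 of 7 pairs. Lipe had 4164 ± 966 against 4804 ± 1247 and was higher in 6 of 7 pairs. In the luminal list 14 of 16 genes were in the table and 1 was called lower, Aldh1a3 (log2 change -0.46). None of 10 endothelial and 9 leukocyte markers was called by limma, and of 10 proliferation genes 1 was called lower, Aurka. With the adipocyte level as a covariate, the log2 estimates of Lmod1 (0.53) and Myocd (0.99) were above 0 and passed the limma threshold, in a fit that called 17.3% of all genes, and the median over the 10 genes was 0.16.

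Genes whose pattern was most like that of the contractile group were sought among 12064 genes with a mean of at least 100 normalized counts, by Pearson r with the mean standardized log2 level of the 10 genes. Over the 14 libraries the highest were D3Ertd751e (0.89), Rnf225 (0.86), Phyh (0.84), Sh3bgr (0.84), Ptgir (0.82), Wfdc1 (0.81), Tmem119 (0.81) and Tsc22d1 (0.80). Over the 7 pair ratios they were Smyd4 (0.97), Bche (0.96), Rab2b (0.95), Ano4 (0.95) and Serpinb6b (0.94). No gene was among the highest by both measures, and the libraries of a litter are not independent.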

How the data were processed

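Poly(A) RNA from MECs of 7 litters was sequenced as read pairs. Per the labels and methods, the authors mapped reads to mm10 with TopHat2 2.0.10, counted fragments on GENCODE M21 genes with HTSeq 0.6.0, left out genes that did not reach 10 fragments in 7 or more samples, and deposited a signal: counts divided by DESeq 1.18.0 size factors, with no samples pooled. In each library 100% of the values were whole multiples of 1 fragment (tolerance 0.01), so the fragments were recovered, and counting error is small beside the spread between mice. Positions and exon lengths are from GENCODE M21 (GRCm38), which matched all 16124 genes. The exon length of a gene is the union of all its annotated exons, which can exceed the length of the transcript expressed. Levels per kb and their order depend on it.

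The main test was limma 3.58.1 (R 4.3.3, lmFit and eBayes with trend) on log2(value + 1) with the litter as a block. A fold change on this scale understates that of low genes. It replaced the study's per-gene paired test, kept as an alternative with edgeR 4.0.16 and DESeq2 1.42.0. Single genes were also tested by exact sign flips of the 7 pair ratios (128 patterns). The litters pair the samples by the labels, and deviations from the genotype means correlated across genes between littermates (0.17 to 0.75, median 0.52) more than between other mice (median -0.15, 42 combinations). In simulated counts with 200 of 16124 genes changed, a log2 change of 1 was recovered in 99% at the unadjusted p of 0.05. It was recovered in 80% at an adjusted p under 0.05, and 5.06% of unchanged genes were called at the unadjusted p. Changes as small as the estimates of the contractile genes were not simulated.

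The contractile genes and the marker lists were chosen with earlier results of these data known. The rule named all 10 genes, from each list up to 4 called genes in order of p and the 2 of highest level per kb, and the genes of most similar pattern (8 over libraries, 5 over pairs). The result of 1 gene that the rule named is not reported here. Alternatives covered the pseudocount (0.1, 10), a mean of at least 50 normalized counts, the trend, the block, other tests and scalings, marker levels as covariates and each pair left out. The exon length index as a covariate was added after the data were seen.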

Additional observations from a re-analysis of the deposited data

Results flagged for a closer look

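Gaps of single libraries were examined in 20 groups, each the 7 mice of 1 genotype for 1 contractile gene. In all 2 stood out, where chance gives about 1 if the groups are independent, and these are not, since genes share the mice. Both were the OE/OE mouse of pair 4. For Mylk, it had 5066 normalized counts and the nearest OE/OE mouse 10493, a gap of 0.639 of the log2 range of the group. For Lmod1, it had 390 normalized counts and the nearest OE/OE mouse 1217, a gap of 0.748 of the log2 range. Over the 7 OE/OE libraries Mylk and Lmod1 had a Pearson r of 0.97, so the 2 flags do not count as separate findings.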

How the results depend on the processing

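No contractile gene was called with the replicate block (the litter) or without it, where 182 in place of 614 genes of the table were called. The number of contractile genes called was 1 under quantile normalization (3.86% of all genes), 2 with the adipocyte level as a covariate, 0 in the other alternatives on all pairs, and 0 to 2 with 1 pair left out (2 without pair 6, where 2.36% of all genes were called). The median log2 change was -0.15 to 0.05 with 1 pair left out, and above 0 also with the adipocyte level (0.16). The genes called in the pathway and basal lists together were 3, but 0 without the block, 1 without the trend, 6, 9 and 29 with the basal, mural and adipocyte levels as covariates, and 1 to 11 with 1 pair left out (11 without pair 4, 8 without pair 1, 1 without pair 6 or 8). The whole table gave 614 genes, 941, 1205 and 2794 with these covariates, 653 without the trend, 1366 without pair 4, 1196 without pair 1, 381 without pair 6 and 482 without pair 8. Signs of single genes changed in 20 cases. Beside the study's paired test the log2 change was the ratio of the genotype means, not the mean of the pair ratios. So measured, it was 0.0050 for Mylk, 0.060 for Lmod1 and 0.15 for Myocd. With the basal level Lmod1 was at 0.0066. With the mural level Mylk was at 0.0037, Lmod1 at 0.077 and Myocd at 0.015. With the adipocyte level Myh11 was at 0.15, Mylk at 0.22, Myl9 at 0.25, Lmod1 at 0.53 and Myocd at 0.99. With the exon length index Oxtr was at -0.016. With 1 pair left out, the range was -0.19 to 0.045 for Myh11, -0.11 to 0.096 for Mylk, -0.13 to 0.048 for Myl9, -0.14 to 0.22 for Lmod1 and -0.46 to 0.28 for Myocd, each highest without pair 4, and -0.085 (without pair 6) to 0.15 for Oxtr. It was -0.17 to -0.054 for Tpm2, -0.16 to -0.087 for Acta2, -0.28 to -0.14 for Tagln and -0.33 to -0.13 for Cnn1. Lmod1 was also above 0 without pair 3 (0.0081). The causes were not tested. Depth limits Myocd most, at 17 fragments in 1 library.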

Other observations

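The short and the long contractile genes, a division made after the values were seen, had different genes of most similar pattern over the 14 libraries. For the mean standardized log2 level of the 5 short genes the highest Pearson r among 12064 genes were those of Rap1a (0.90), BC031181 (0.90), Tusc3 (0.89), Gm15500 (0.89) and 3830406C13Rik (0.89). For the 5 long genes they were those of Nexn (0.97), which encodes an actin-binding protein of muscle, Slc8a1 (0.96), the sodium-calcium exchanger, Slc10a5 (0.95), Slc25a12 (0.95) and Aoc3 (0.95). The log2 changes of these 10 genes in OE/OE ran from -0.38 (Slc10a5) to 0.06 (Nexn).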
